A study of Mus musculus with 15 samples.

Results

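The Rab GTPases of vesicle traffic were followed in XCR1+ dendritic cells (DCs) sorted from thymus and spleen of mice. Members were the genes whose platform symbol is Rab plus a number and at most 1 further letter, without Rab7b, on probe sets that carry exactly 1 symbol. There were 58 such genes among the 18194 genes measured on the array. Where a gene had several probe sets, the one brightest on average across the 15 arrays stood for it. In all, 53 of the 58 passed a filter on low signal, a value above 4.39 (log2) in at least 3 arrays, as did 13629 of all genes. The 5 that did not, Rab3c, Rab9b, Rab27b, Rab33a and Rab40b, had no array above 4.52, and no change is given for them. Rab42 had no CCR7- array above the filter value and Rab20 had none in thymus CCR7- cells, so Rab42 passed wholly and Rab20 mainly through the CCR7+ groups.

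The study hybridised 15 Affymetrix arrays, 3 in each of 5 groups. These were thymus CCR7+ and thymus CCR7- cells of untreated mice, spleen CCR7+ cells taken 18 h after an intraperitoneal injection of 10 µg polyI:C, and spleen CCR7+ and spleen CCR7- cells of untreated mice. PolyI:C is a synthetic double-stranded RNA sensed by Toll-like receptor 3 and cytosolic sensors. All groups were sorted as CD11c+ CD317- CD172a-, the CCR7+ fractions as CD117- and the CCR7- fractions as CD117+, and the labels call CCR7- cells immature and CCR7+ cells matured. The labels state neither strain nor age, nor whether replicates came from separate mice or pools. The p-values therefore reflect the spread among these arrays, which may be technical. No CCR7- cells of treated mice were measured, so every polyI:C change against CCR7- cells joins the treatment with the difference between fractions. The labels of the spleen arrays carry a set mark that the thymus arrays lack. Tissue and set cannot be told apart.

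Rab proteins are small GTPases that mark membranes. Exchange factors (GEFs) load them with GTP, and in that state they recruit motors, tethers and fusion factors to a vesicle. GTPase-activating proteins (GAPs) switch them off, and GDP dissociation inhibitors take them back to the cytosol. In DCs the Rab proteins of endosomes and phagosomes take part in antigen uptake, in the delivery of MHC molecules and in cross-presentation, the display of ingested antigen on MHC class I for which XCR1+ DCs are known.

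Facts of the whole series set the scale. Array medians ran from 4.855 to 4.996, and arrays of a group correlated with each other at a mean r of 0.975 to 0.992, lowest in untreated spleen CCR7+ cells. Of 9 XCR1+ DC markers measured, all were above the filter value in every array. Xcr1 itself averaged 5.25, 11.40, 7.54, 8.03 and 11.58 in thymus CCR7+, thymus CCR7-, spleen polyI:C CCR7+, spleen CCR7+ and spleen CCR7- cells. The summed unlogged signal of the 9 markers was 11262 to 13576 in thymus CCR7+ arrays and 28954 to 31376 in thymus CCR7- arrays. Its markers did not all move alike, since Batf3 averaged 10.18 in thymus CCR7+ and 9.25 in thymus CCR7- cells, and Zbtb46 9.23 in both. Markers of other cells moved with the fractions, and some differed between tissues. The summed unlogged signal of 10 T cell markers was 1135 to 2969 in thymus CCR7+ arrays and 367 to 690 in thymus CCR7- arrays, with 9 and 8 of the 10 above the filter value in all 3 arrays. That of 6 B cell markers was 1397 to 4423 in untreated spleen CCR7+ arrays and 732 to 801 in spleen CCR7- arrays, with 6 and 4 of the 6 above the filter value. The sum of 9 macrophage and monocyte markers was 3486 to 4755 in thymus CCR7+ arrays and 1725 to 2093 in thymus CCR7- arrays. It was carried mostly by Vcam1 (mean 11.67 and 10.08). C1qa (6.38 and 4.93), C1qb (6.16 and 4.94), C1qc (6.13 and 4.66) and Mertk (4.55 and 3.94) also averaged higher in CCR7+ cells. Lyz2 (8.53 and 9.16), Cd14 and Adgre1 averaged lower in CCR7+ cells, and Fcgr1 read 4.91 and 4.95. The sum of 7 plasmacytoid DC markers was 6416 to 8989 after polyI:C and 1619 to 2089 in spleen CCR7- arrays. Spib (11.78 and 6.29) and Bst2 (11.93 and 8.51) carried it, while Ccr9 (6.77 and 9.86), Tcf4 and Klk1 averaged lower after polyI:C and Siglech read 6.084 and 6.002. Bst2 encodes CD317, for which all groups were sorted negative. Between tissues, the sum of 8 thymic epithelium and stroma markers was 1501 to 1686 in thymus CCR7- and 216 to 246 in spleen CCR7- arrays. Epcam (10.44 and 6.41) carried it, while Col1a1 read 3.53 in both and Pecam1 (4.05 and 4.60) was lower in thymus. The part of these markers in the Rab changes below was not tested. In bulk arrays, fewer cells of a type and less RNA per cell cannot be told apart.

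In the thymus, calls among the Rab genes leaned upward in CCR7+ cells. Of the 53 tested, 18 were higher and 6 lower at a limma adjusted p under 0.05, or 45.3% in either direction, where 37.3% of all genes tested were called. In the higher direction these were 34% of the Rab genes against 16.8% of all genes, and in the lower direction 11.3% against 20.4%. The Rab genes tested had a median log2 fold change of 0.07, and all genes tested had -0.06. Changes are log2 fold changes, on which 1 unit is a 2-fold difference, and with RMA values they understate the change of dim genes.

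Untreated spleen gave a similar count. Here CCR7+ cells had 14 Rab genes higher and 10 lower, 45.3% in either direction against 36.5% of all genes. The higher calls were 26.4% of the Rab genes (all genes 12.3%) and the lower calls 18.9% (all genes 24.1%). The median was 0.02 over the Rab genes and -0.03 over all genes tested.

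The thymic and the untreated splenic comparison share no arrays. All 14 Rab genes called higher in spleen were called higher in thymus, where they were 77.8% of the 18. All 6 called lower in thymus were called lower in spleen, where they were 60% of the 10. Over all genes tested, the genes called higher in both were 59% of the thymus calls and 80.6% of the spleen calls, and those lower in both were 79% and 66.9%. No Rab gene was called in opposite directions, as were 25 genes higher in thymus and 10 lower in thymus among all genes. Same-numbered arrays deviated together across the tissues, so the pair of comparisons is not fully independent.

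**Figure D1:**
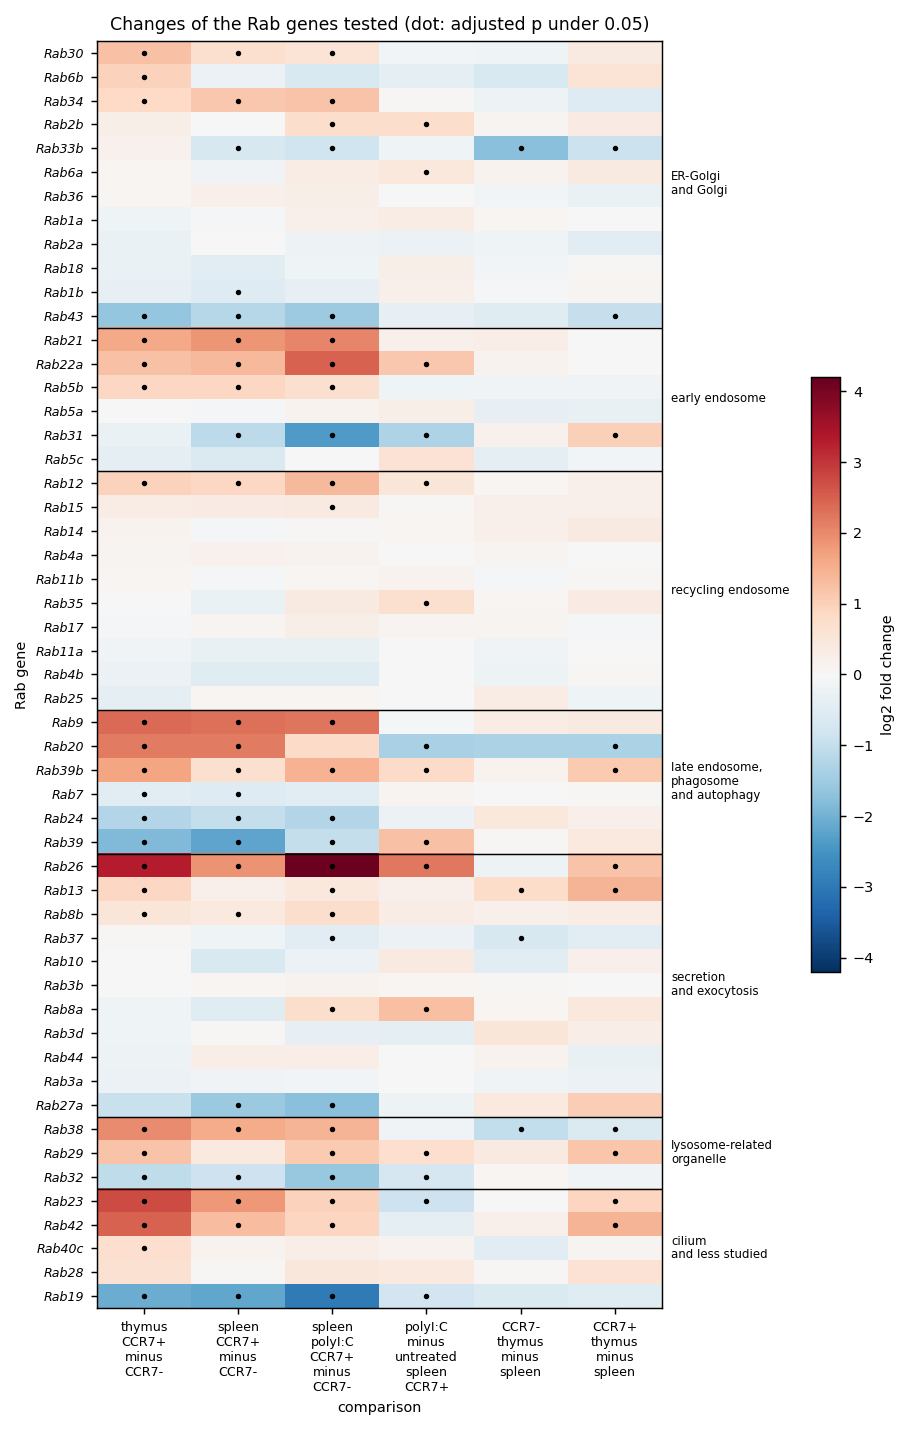
Log2 fold change (colour) of the 53 Rab genes tested (rows, grouped by the role of the protein) in 6 comparisons (columns); a dot marks an adjusted p under 0.05. The late endosome group holds calls in both directions, while 9 of 10 recycling endosome genes carry no call in thymus and 9 of 10 none in untreated spleen. Of all genes tested, 37.3% were called in thymus and 36.5% in untreated spleen.

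Among Rab genes of the late endosome, phagosome and autophagy, all 6 tested were called in thymus and in untreated spleen, 3 higher and 3 lower in each tissue. Of all genes, 37.3% and 36.5% were called in these comparisons. Rab9, which returns mannose 6-phosphate receptors from late endosomes to the Golgi, rose most evenly. It read 13.49, 13.37 and 13.31 in thymus CCR7+ arrays, against 11.24, 10.75 and 10.996 in thymus CCR7- arrays. Its spleen arrays read 12.86, 13.00 and 12.99 after polyI:C and 13.14, 13.11 and 12.75 in untreated CCR7+ cells, against 10.67, 10.42 and 11.004 in CCR7- cells. Every CCR7+ array was above every CCR7- array, and the CCR7+ groups of the spleen overlapped each other. The rises were 2.40 in thymus, 2.30 in untreated spleen and 2.25 after polyI:C (standard error 0.17, adjusted p at most 2.6e-07), close to 5-fold each.

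Rab20, a Rab of maturing phagosomes, also rose in both untreated tissues but less evenly. It read 5.28, 5.56 and 5.86 in thymus CCR7+ arrays, against 3.63, 3.53 and 3.03 in thymus CCR7- arrays, which all lie below the filter value. The spleen values were 5.51, 5.62 and 5.44 after polyI:C and 5.68, 7.39 and 7.59 in untreated CCR7+ cells, against 4.26, 4.82 and 5.05 in CCR7- cells. Untreated spleen CCR7+ replicate 1 thus stood near the polyI:C arrays and apart from replicates 2 and 3. The rises were 2.17 in thymus (adjusted p = 0.00043) and 2.18 in untreated spleen (adjusted p = 0.00055), while the polyI:C value of 0.81 was not called (adjusted p = 0.10).

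Rab39b, a brain-expressed relative of Rab39, read 6.87, 6.72 and 6.95 in thymus CCR7+ arrays, against 4.97, 5.29 and 5.33 in thymus CCR7- arrays. Spleen arrays gave 6.91, 6.25 and 6.43 after polyI:C and 5.24, 6.11 and 5.88 in untreated CCR7+ cells, against 4.997, 5.12 and 5.07 in CCR7- cells. Within each tissue every CCR7+ array was above every CCR7- array, by the least for untreated spleen replicate 1. The rise was 1.65 in thymus, 0.68 in untreated spleen and 1.47 after polyI:C. A dimmer second probe set of Rab39b gave 2.42, 1.71 and 1.59.

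The fallers of this role were Rab39, Rab24 and Rab7. Rab39 (Rab39a in human), which acts on phagosomes, read 7.40, 7.26 and 6.74 in thymus CCR7+ arrays, against 9.25, 8.95 and 8.78 in thymus CCR7- arrays. In spleen it read 7.79, 8.31 and 7.75 after polyI:C and 6.62, 7.21 and 6.30 in untreated CCR7+ cells, against 9.29, 8.81 and 8.71 in CCR7- cells. The 3 spleen groups did not overlap, and the polyI:C arrays lay between the other 2 groups. Rab39 changed by -1.86 in thymus, -2.23 in untreated spleen and -0.99 after polyI:C. Rab24, linked to autophagy, changed by -1.23 in thymus, -1.005 in untreated spleen and -1.23 after polyI:C. Its arrays read 6.81, 6.79 and 6.53 in thymus CCR7+ cells, against 8.41, 7.36 and 8.07 in thymus CCR7- cells. In spleen they read 5.91, 6.84 and 6.08 after polyI:C and 6.23, 6.91 and 6.39 in untreated CCR7+ cells, against 7.67, 7.30 and 7.58 in CCR7- cells. Groups did not overlap within a tissue between CCR7+ and CCR7- cells. Rab7, the main Rab of late endosomes and lysosomes, moved little, by -0.48 in thymus (adjusted p = 0.045) and -0.55 in untreated spleen (adjusted p = 0.024), and its polyI:C value of -0.43 was not called.

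**Figure D2:**
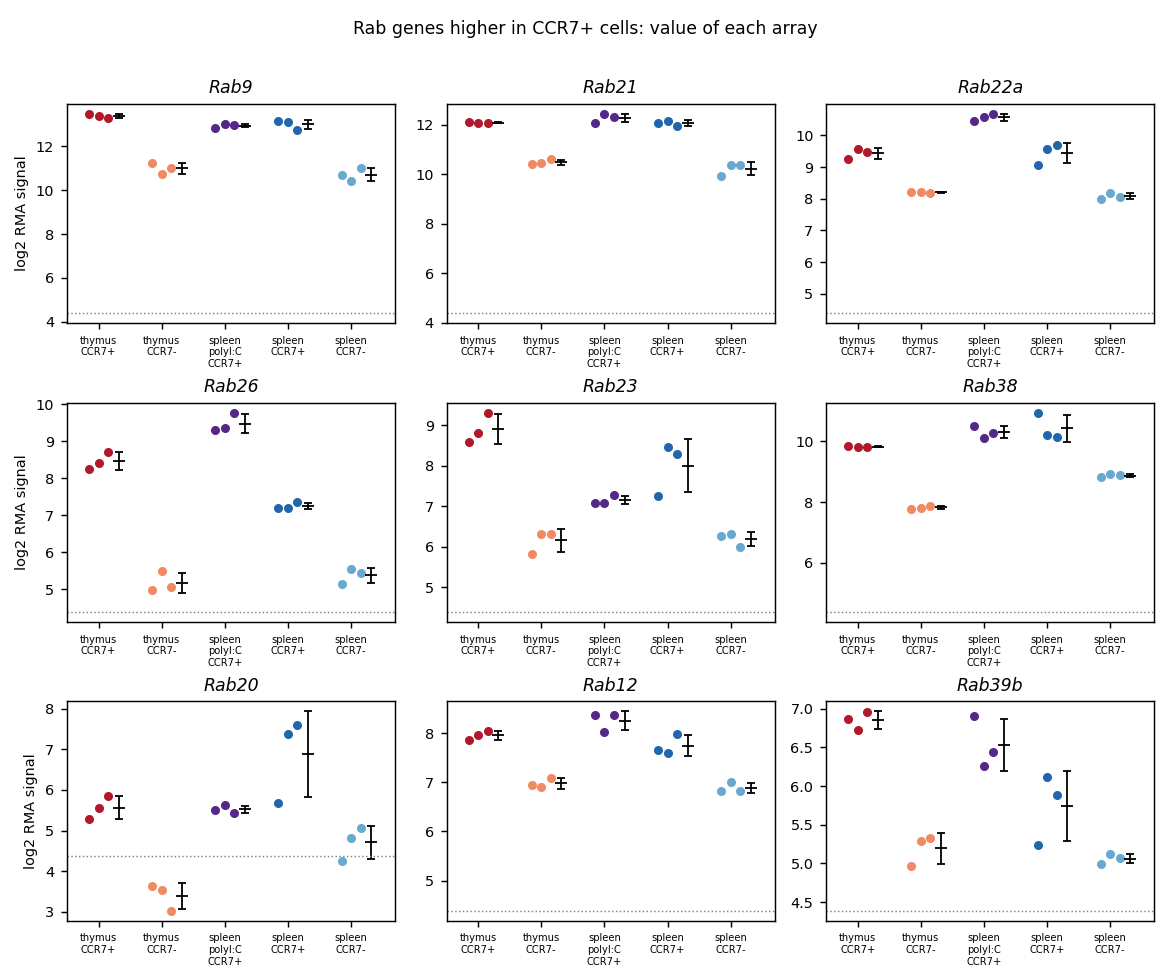
Log2 RMA signal (y axis) of every array for 9 Rab genes that were higher in CCR7+ cells, by group (x axis); coloured points are arrays, the black bar is the mean ± SD (n = 3) and the dotted line the filter value of 4.39. Rab9 and Rab21 separate CCR7+ from CCR7- cells by similar amounts in all groups. On the probe sets shown, Rab26 and Rab22a stand highest after polyI:C and Rab23 in thymus.

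Among 6 early endosome Rab genes, 3 rose in thymus and in untreated spleen and the other 3 were not called in thymus. Of all genes, 16.8% were called higher in thymus and 12.3% in untreated spleen. Rab21, which drives endocytosis of integrins, read 12.11, 12.07 and 12.07 in thymus CCR7+ arrays, against 10.40, 10.46 and 10.60 in thymus CCR7- arrays. Its spleen arrays read 12.08, 12.42 and 12.31 after polyI:C and 12.09, 12.16 and 11.95 in untreated CCR7+ cells, against 9.91, 10.36 and 10.37 in CCR7- cells. All 9 CCR7+ arrays lay above all 6 CCR7- arrays, with rises of 1.59, 1.85 and 2.06 in thymus, untreated spleen and polyI:C-treated spleen. Both of its probe sets were called in each.

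Rab22a, which acts in recycling from early endosomes and in MHC class I traffic, was highest after polyI:C on its brightest probe set. It read 9.24, 9.58 and 9.46 in thymus CCR7+ arrays, against 8.22, 8.21 and 8.19 in thymus CCR7- arrays. The spleen values were 10.44, 10.59 and 10.67 after polyI:C and 9.08, 9.57 and 9.68 in untreated CCR7+ cells, against 7.98, 8.17 and 8.07 in CCR7- cells. The 3 spleen groups did not overlap. The rises were 1.22 in thymus, 1.37 in untreated spleen and 2.49 after polyI:C, and 3 of its 4 probe sets were called higher in each. Its dimmer probe sets rose less after polyI:C, by 0.10, 0.92 and 1.39. In untreated spleen they gave 0.19, 0.93 and 1.57. Rab5b rose by 0.86, 0.87 and 0.69, though a dimmer probe set gave -0.15 in thymus and -0.13 in untreated spleen, not called, and its relatives Rab5a and Rab5c, which with it direct the fusion of early endosomes, were not called in any of these comparisons (values from -0.61 to 0.16).

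Rab31, which works between the Golgi and early endosomes, fell in spleen. It read 8.27, 7.82 and 7.62 after polyI:C and 8.74, 9.44 and 9.43 in untreated CCR7+ arrays, against 10.57, 10.22 and 10.08 in CCR7- arrays. In thymus it read 10.18, 10.19 and 10.23 in CCR7+ cells, against 10.52, 10.67 and 10.26 in CCR7- cells. The spleen groups were fully separate. The thymus groups lay close without overlap, with 10.23 as the highest CCR7+ array and 10.26 as the lowest CCR7- array. The change was -1.09 in untreated spleen and -2.38 after polyI:C, and -0.28 in thymus, not called (adjusted p = 0.35). A dimmer second probe set of Rab31 gave -0.16 and -0.28 in the spleen comparisons and was not called. The difference between thymic and splenic change was 0.80 and not called (adjusted p = 0.20).

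Of 11 Rab genes of secretion and exocytosis tested, 3 rose and none fell in thymus, 2 rose and 1 fell in untreated spleen, and 4 rose and 2 fell after polyI:C. Of all genes, 16.8%, 12.3% and 18.4% were called higher in these comparisons, and 20.4%, 24.1% and 28% lower. Rab26, known from secretory granules and synaptic vesicles, had the largest maturation change of any Rab gene tested in thymus and after polyI:C. It read 8.25, 8.42 and 8.73 in thymus CCR7+ arrays, against 4.98, 5.49 and 5.06 in thymus CCR7- arrays. Spleen arrays gave 9.32, 9.35 and 9.78 after polyI:C and 7.21, 7.19 and 7.36 in untreated CCR7+ cells, against 5.14, 5.55 and 5.44 in CCR7- cells. The CCR7- groups overlapped between tissues, and the 3 CCR7+ groups did not overlap each other, in the order polyI:C spleen, thymus, untreated spleen. The rises were 3.29 ± 0.18 in thymus (SE, adjusted p = 1e-08), 1.88 in untreated spleen and 4.11 after polyI:C, or 9.8-fold, 3.67-fold and 17.2-fold.

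Rab27a, which docks lytic granules and in DCs acts on the phagosome, varied widely between arrays of a group. It read 6.35, 7.16 and 5.56 after polyI:C and 5.75, 7.91 and 6.01 in untreated spleen CCR7+ arrays, against 8.52, 8.03 and 7.79 in spleen CCR7- arrays. In thymus it read 7.81, 8.05 and 6.85 in CCR7+ cells, against 9.13, 8.06 and 8.36 in CCR7- cells. Untreated spleen CCR7+ replicate 2 lay within the range of the CCR7- arrays. The change was -1.75 after polyI:C (adjusted p = 0.014), -1.56 in untreated spleen (adjusted p = 0.033) and -0.94 in thymus, not called. The polyI:C call ended without spleen CCR7- replicate 1 (-1.55, adjusted p = 0.058) and without polyI:C replicate 3 (-1.36, adjusted p = 0.074).

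On their brightest probe sets, the other called genes of this role differed by less than 2-fold between CCR7+ and CCR7- cells of a tissue. Rab8b rose by 0.50 in thymus, 0.41 in untreated spleen and 0.73 after polyI:C. Rab13, a Rab of epithelial junctions, read 7.01, 7.59 and 7.25 in thymus CCR7+ arrays, against 6.47, 6.35 and 6.40 in thymus CCR7- arrays, a rise of 0.88. Its spleen arrays read 6.06, 6.06 and 6.11 after polyI:C and 5.67, 5.76 and 6.13 in untreated CCR7+ cells, against 5.74, 5.69 and 5.47 in CCR7- cells. The rise after polyI:C was 0.45 (adjusted p = 0.034), and the untreated spleen groups overlapped (0.22, not called). Rab8a, which drives vesicles to the plasma membrane and the cilium, read 9.37, 9.28 and 9.62 after polyI:C and 7.54, 8.31 and 8.66 in untreated CCR7+ cells, against 8.71, 8.84 and 8.49 in spleen CCR7- cells. Its thymus arrays read 8.34, 8.53 and 8.94 in CCR7+ cells, against 8.67, 8.97 and 8.67 in CCR7- cells. The polyI:C arrays lay above all others, 0.74 over spleen CCR7- cells (adjusted p = 0.021), while -0.17 in thymus and -0.51 in untreated spleen were not called. Rab37 changed by -0.43 after polyI:C (adjusted p = 0.017). Its second probe set, similar in mean signal, gave -2.23 after polyI:C and -1.73 in untreated spleen, where the first was not called (-0.19), and a called difference between tissues of 1.81 (adjusted p = 0.018 over all probe sets tested).

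All 3 Rab genes of lysosome-related organelles were called in thymus, where 37.3% of all genes were. Rab38 and Rab32 are close relatives that share the making of melanosomes, and they moved in opposite directions. Rab38 read 9.85, 9.81 and 9.80 in thymus CCR7+ arrays, against 7.78, 7.81 and 7.88 in thymus CCR7- arrays. In spleen it read 10.49, 10.10 and 10.28 after polyI:C and 10.94, 10.20 and 10.12 in untreated CCR7+ cells, against 8.82, 8.91 and 8.87 in CCR7- cells. Its rises were 2.00 in thymus, 1.55 in untreated spleen and 1.42 after polyI:C.

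Rab32 read 11.03, 10.95 and 11.11 in thymus CCR7+ arrays, against 12.23, 11.94 and 12.15 in thymus CCR7- arrays. Its spleen arrays read 10.36, 10.56 and 10.44 after polyI:C and 10.97, 11.46 and 11.09 in untreated CCR7+ cells, against 12.21, 11.87 and 12.02 in CCR7- cells. Both genes separated CCR7+ from CCR7- arrays completely in each tissue, Rab38 upward and Rab32 downward. Rab32 changed by -1.08 in thymus, -0.86 in untreated spleen and -1.58 after polyI:C. Rab29, a Golgi Rab that recruits the kinase Lrrk2, read 10.75, 10.82 and 10.82 in thymus CCR7+ arrays, against 9.63, 9.55 and 9.61 in thymus CCR7- arrays. The spleen values were 9.89, 10.51 and 10.61 after polyI:C and 10.04, 9.55 and 9.32 in untreated CCR7+ cells, against 9.24, 9.11 and 9.32 in CCR7- cells. Rab29 rose by 1.20 in thymus and 1.11 after polyI:C, and its 0.42 in untreated spleen was not called.

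Among the 12 Golgi and ER-Golgi Rab genes tested, 3 rose and 1 fell in thymus, and 2 rose and 3 fell in untreated spleen. Of all genes, 16.8% were called higher and 20.4% lower in thymus, and 12.3% and 24.1% in untreated spleen. Rab43, which in mouse XCR1+ DCs has a known role in cross-presentation, fell. It read 8.87, 9.25 and 9.24 in thymus CCR7+ arrays, against 10.62, 10.96 and 10.63 in thymus CCR7- arrays. Spleen arrays gave 10.04, 9.59 and 9.52 after polyI:C and 9.83, 9.98 and 10.41 in untreated CCR7+ cells, against 11.43, 11.33 and 11.01 in CCR7- cells. The fractions did not overlap within a tissue, and the changes were -1.62 in thymus, -1.19 in untreated spleen and -1.54 after polyI:C. Of its 3 probe sets only this brightest one was called in thymus and untreated spleen, where the least negative gave -0.08 and -0.09.

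Rab30, a Golgi Rab, read 11.42, 11.27 and 11.14 in thymus CCR7+ arrays, against 10.02, 10.08 and 10.07 in thymus CCR7- arrays, a rise of 1.23. In spleen it read 10.71, 10.65 and 11.002 after polyI:C and 11.16, 10.82 and 10.71 in untreated CCR7+ cells, against 10.15, 9.99 and 10.53 in CCR7- cells. The spleen rises were smaller, 0.67 untreated and 0.57 after polyI:C, where another probe set gave -0.05. Rab34, which positions lysosomes and acts in phagosome maturation, rose by 0.83 in thymus, 1.14 in untreated spleen and 1.19 after polyI:C. Its arrays read 5.49, 6.18 and 6.76 after polyI:C and 5.98, 6.26 and 6.04 in untreated spleen CCR7+ cells, against 4.94, 5.04 and 4.90 in spleen CCR7- cells, close to the filter value. In thymus they read 5.35, 5.502 and 5.84 in CCR7+ cells, against 4.83, 4.82 and 4.55 in CCR7- cells. Of the Rabs that carry basal ER-Golgi traffic, Rab1a and Rab2a were not called in any comparison on their brightest probe sets, and Rab1b was called in untreated spleen alone (-0.55, adjusted p = 0.013). Rab6b rose in thymus by 0.97 and Rab2b after polyI:C by 0.75. Rab33b, described with the tissue differences below, changed by -0.68 in untreated spleen and -0.85 after polyI:C and was not called in thymus (0.17).

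The recycling endosome Rabs had the smallest share of calls of these roles, with 1 of 10 called in thymus and in untreated spleen. Of all genes, 37.3% and 36.5% were called there. The 1 recycling endosome gene called was Rab12, which routes transferrin receptor from recycling endosomes to lysosomes. It read 7.87, 7.95 and 8.04 in thymus CCR7+ arrays, against 6.94, 6.90 and 7.09 in thymus CCR7- arrays. Its spleen arrays read 8.36, 8.03 and 8.36 after polyI:C and 7.66, 7.59 and 7.99 in untreated CCR7+ cells, against 6.82, 7.01 and 6.83 in CCR7- cells. The rises were 0.98 in thymus, 0.86 in untreated spleen and 1.37 after polyI:C. A dimmer second probe set of Rab12 gave 1.87, 2.48 and 1.85, with untreated spleen highest. Rab15 joined Rab12 after polyI:C (0.39, adjusted p = 0.037). On their brightest probe sets Rab11a, Rab11b, Rab14, Rab4a, Rab4b, Rab17 and Rab25 were not called in any comparison. Dimmer probe sets gave calls for 3 of them. For Rab14, 2 of 7 were higher in thymus (1.22 and 1.63) and in untreated spleen (1.12 and 1.43). A second probe set of Rab11a was lower in both spleen comparisons (-0.85 untreated and -0.73 after polyI:C). For Rab11b, 2 were lower after polyI:C (-1.29 and -0.84).

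Of the cilium-linked and less studied Rabs, Rab23 and Rab42 rose and Rab19 fell. Rab23, a negative regulator of Hedgehog signalling, read 8.59, 8.80 and 9.32 in thymus CCR7+ arrays, against 5.82, 6.32 and 6.32 in thymus CCR7- arrays. The spleen values were 7.09, 7.09 and 7.27 after polyI:C and 7.26, 8.47 and 8.29 in untreated CCR7+ cells, against 6.27, 6.30 and 5.99 in CCR7- cells. It rose by 2.75, 1.82 and 0.96 in thymus, untreated spleen and polyI:C-treated spleen. Rab42 read 6.39, 6.45 and 6.52 in thymus CCR7+ arrays, against 3.94, 4.196 and 3.80 in thymus CCR7- arrays. Spleen arrays gave 4.63, 4.53 and 4.83 after polyI:C and 5.24, 5.19 and 4.68 in untreated CCR7+ cells, against 3.84, 3.85 and 3.59 in CCR7- cells. All 6 CCR7- arrays were below the filter value, so its rises of 2.48, 1.28 and 0.90 start from signal that may be background. Rab40c rose in thymus by 0.70.

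Rab19, about whose function little is known, had the largest fall after polyI:C of the Rab genes tested. It read 6.19, 6.31 and 6.20 in thymus CCR7+ arrays, against 8.40, 8.17 and 8.36 in thymus CCR7- arrays. In spleen it read 6.07, 6.15 and 5.68 after polyI:C and 6.27, 7.05 and 6.96 in untreated CCR7+ cells, against 8.87, 8.94 and 8.97 in CCR7- cells. CCR7+ and CCR7- arrays did not overlap, and the polyI:C arrays lay below the untreated CCR7+ arrays. The changes were -2.07, -2.17 and -2.96 in thymus, untreated spleen and polyI:C-treated spleen.

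**Figure D3:**
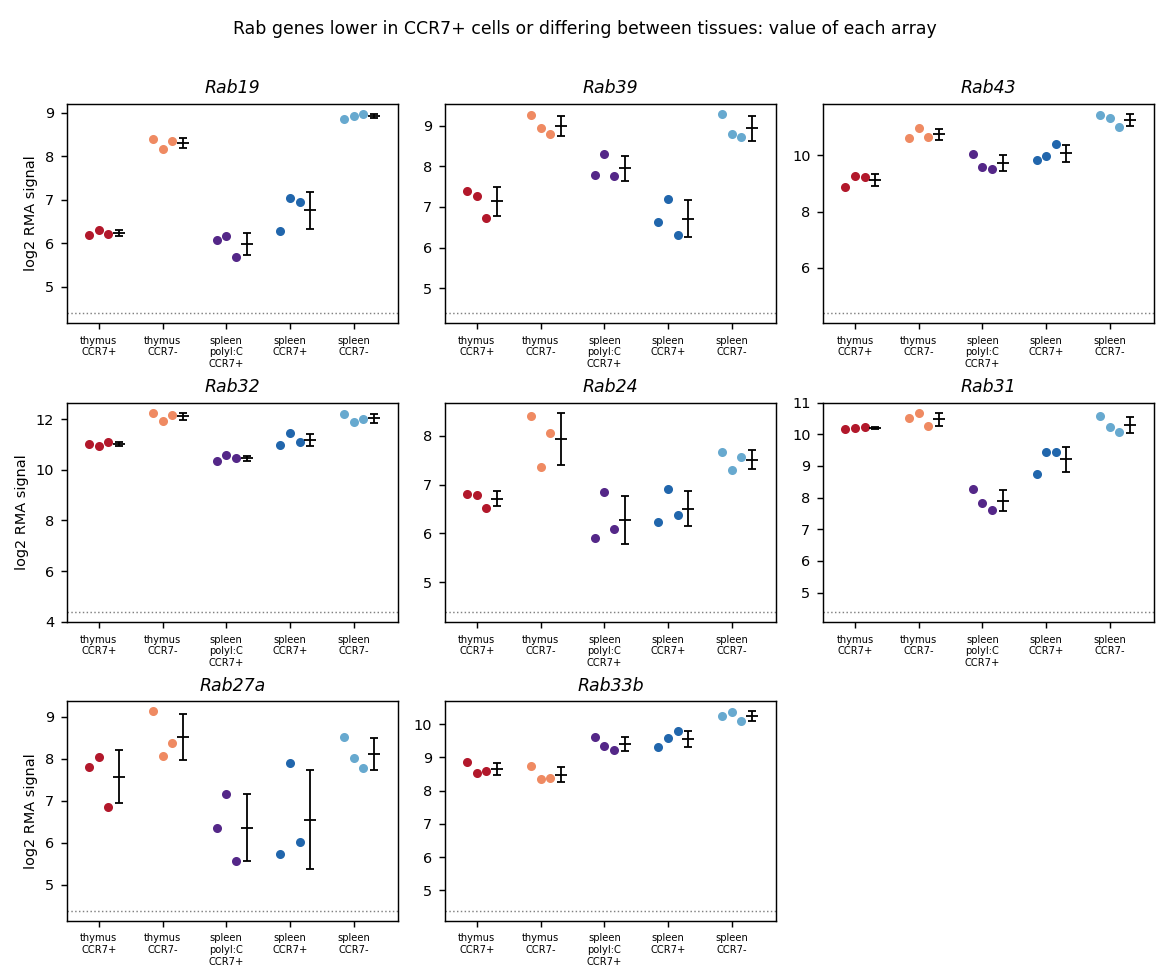
Log2 RMA signal (y axis) of every array for 7 Rab genes that were lower in CCR7+ cells and for Rab33b, by group (x axis); coloured points are arrays, the black bar is the mean ± SD (n = 3) and the dotted line the filter value of 4.39. Rab19 and Rab39 fall in both tissues, Rab31 in spleen, and Rab33b is lower in both thymus groups than in the spleen groups.

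The 250 bases before the gene start were searched for 3 motifs, chosen after the calls were seen, on both strands, in the RefSeq promoters (GRCm38.p6) of the 48 members that matched. The E-box CACGTG was held by 5 members (Rab5a, Rab20, Rab21, Rab23 and Rab27a), while 6.86% of 27025 genes held it. The interferon-stimulated response element core GAAANNGAAA was held by 1 member, Rab19 (3.46% of all genes), and the NF-kB consensus by Rab15 and Rab28 (4.46%). The 3 motifs do not overlap each other in the sequences below. Shown are the E-box promoters of the 3 holders that rose in both tissues and the promoter of Rab19, the only holder of the interferon element, which fell. Capitals mark the motif, and a match is a description of letters, not a binding site.
Rab20, chr8:11478641-11478890, minus strand: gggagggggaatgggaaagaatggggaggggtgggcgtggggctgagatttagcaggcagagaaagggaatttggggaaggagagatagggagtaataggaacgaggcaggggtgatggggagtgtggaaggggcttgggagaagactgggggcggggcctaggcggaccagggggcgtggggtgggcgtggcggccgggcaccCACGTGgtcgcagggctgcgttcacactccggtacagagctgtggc
Rab21, chr10:115315592-115315841, minus strand: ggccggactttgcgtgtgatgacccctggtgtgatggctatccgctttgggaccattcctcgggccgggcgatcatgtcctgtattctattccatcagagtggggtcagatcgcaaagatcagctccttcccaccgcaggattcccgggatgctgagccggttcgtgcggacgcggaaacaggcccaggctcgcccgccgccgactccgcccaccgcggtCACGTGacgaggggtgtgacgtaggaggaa
Rab23, first of its 2 promoters, chr1:33719646-33719895, plus strand: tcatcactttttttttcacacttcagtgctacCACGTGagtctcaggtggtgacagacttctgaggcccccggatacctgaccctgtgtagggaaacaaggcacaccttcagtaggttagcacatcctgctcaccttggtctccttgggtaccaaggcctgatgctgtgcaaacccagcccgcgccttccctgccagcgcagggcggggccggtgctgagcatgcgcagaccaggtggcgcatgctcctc
Rab19, chr6:39381103-39381352, plus strand: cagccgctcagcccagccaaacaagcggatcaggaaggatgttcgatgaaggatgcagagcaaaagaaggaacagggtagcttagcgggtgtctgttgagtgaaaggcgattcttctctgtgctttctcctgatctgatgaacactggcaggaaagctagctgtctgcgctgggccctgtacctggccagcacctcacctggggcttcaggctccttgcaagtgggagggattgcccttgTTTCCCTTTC
The E-box begins 46 bases before the gene start in Rab20, 30 in Rab21 and 218 in Rab23. In Rab19 the interferon element, read here from its other strand, covers the last 10 bases before the start. Rab27a, which also holds an E-box, was lower in spleen CCR7+ cells, and Rab5a was not called in any comparison.

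**Figure D4:**
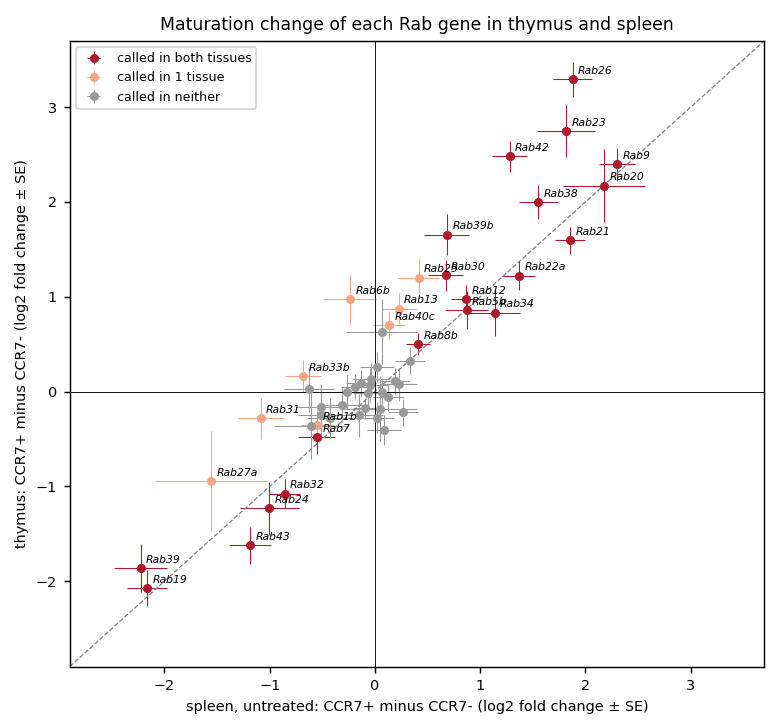
Maturation change (CCR7+ minus CCR7-, log2 fold change ± SE) of each of the 53 Rab genes in thymus (y axis) against untreated spleen (x axis); colours give the calls and the dashed line marks equal change. The 20 genes called in both tissues lie in the same direction. Rab26 and Rab42, the genes whose difference between tissues was called, lie above the line.

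PolyI:C-matured spleen cells had 18 Rab genes higher and 9 lower than spleen CCR7- cells, 50.9% in either direction where 46.4% of all genes were called. In the higher direction this was 34% of the Rab genes against 18.4% of all genes, and in the lower direction 17% against 28%. The median log2 fold change was 0.21 over the Rab genes and 0.02 over all genes tested. On the brightest probe sets, the largest rises were those of Rab26, Rab22a, Rab9 and Rab21. The largest falls were those of Rab19, Rab31 and Rab27a, with the values given above. This comparison uses the same spleen CCR7- arrays as the untreated one.

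Set directly against untreated spleen CCR7+ cells, polyI:C cells had 10 Rab genes higher and 5 lower, 28.3% of the Rab genes where 18.2% of all genes were called. The higher calls were 18.9% of the Rab genes (all genes 8.58%) and the lower calls 9.43% (all genes 9.66%). Rab26 was higher by 2.23 (standard error 0.18, adjusted p = 1.5e-06), Rab8a by 1.25, Rab39 by 1.24 and Rab22a by 1.12. The Rab8a groups, given above, were separate, and the second of its probe sets above the filter gave 0.29, not called. For Rab22a the 4 probe sets ran from -0.84 to 1.12 and 1 was called, and the mean of its probe sets gave 0.21 (adjusted p = 0.37).

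Smaller rises after polyI:C against untreated CCR7+ cells were those of Rab39b (0.79), Rab2b (0.73), Rab29 (0.70), Rab35 (0.66), Rab12 (0.50) and Rab6a (0.43). The arrays of Rab29 overlapped between the groups. Other probe sets had the opposite sign for Rab12 (-0.63), Rab39b (-0.11) and Rab6a (-0.52 on both), none of them called. Rab35 recycles cargo to the plasma membrane and Rab6a carries vesicles from the Golgi. Lower after polyI:C were Rab20 (-1.36), Rab31 (-1.30), Rab23 (-0.85), Rab19 (-0.79) and Rab32 (-0.72). The Rab23 arrays overlapped. On a second probe set Rab31 gave -0.12 and Rab23 gave -0.18, neither of them called. The Rab20 call (adjusted p = 0.024) ended without untreated spleen CCR7+ replicate 2 (-1.11) or 3 (-1.01), without polyI:C replicate 1 (-1.35) or 3 (-1.32), and in a fit of these groups alone (-1.36, adjusted p = 0.13). Single arrays also moved the counts. The 10 higher were 6 without untreated CCR7+ replicate 1 or without polyI:C replicate 3. The 5 lower were 3 without untreated CCR7+ replicate 2 or polyI:C replicate 1, and 2 without polyI:C replicate 3. In a fit of these groups alone 4 were higher and 1 lower. Shares of all genes called in these settings are not given here. The drops can therefore not be read as particular to Rab genes.

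**Figure D5:**
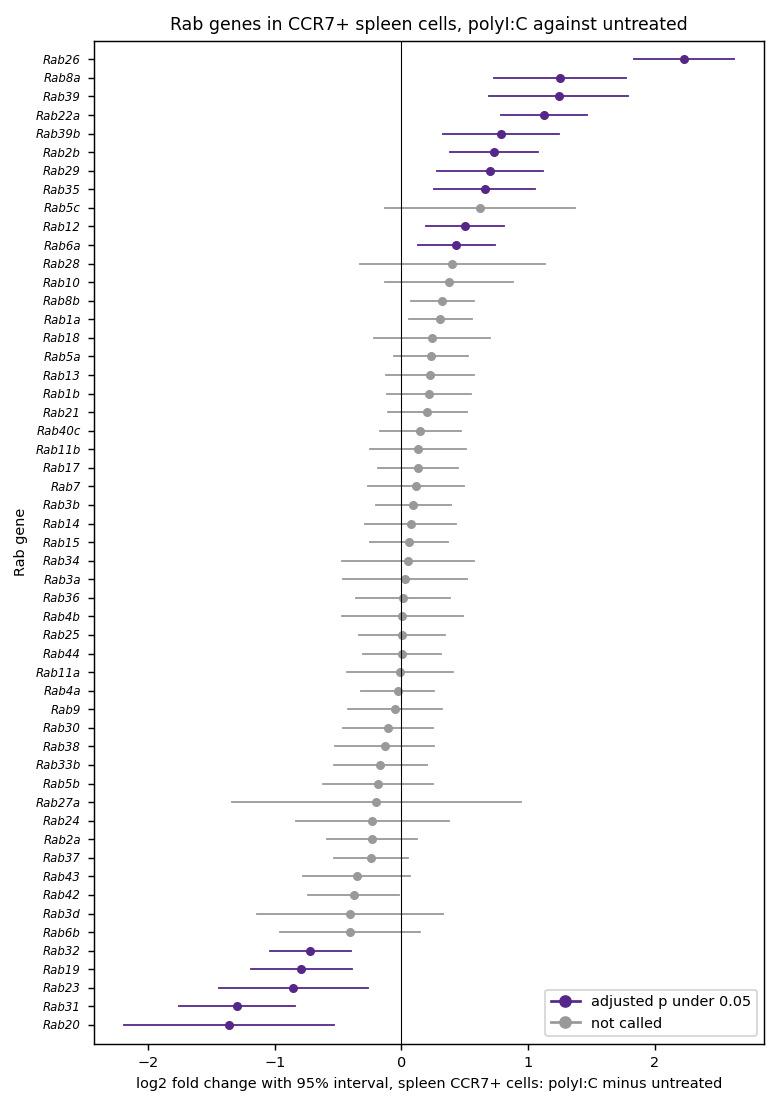
Log2 fold change with its 95% interval (x axis) of the 53 Rab genes (y axis) in spleen CCR7+ cells, polyI:C minus untreated; purple genes have an adjusted p under 0.05. Rab26 is highest at 2.23, and Rab20 and Rab31 are lowest at -1.36 and -1.30.

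Between CCR7- cells of the tissues, 4 of the 53 Rab genes were called, 7.55% where 8.16% of all genes were. Rab13 was higher in thymus (0.78), which was 1.89% of the Rab genes against 4.92% of all genes, and Rab33b, Rab38 and Rab37 were lower, 5.66% against 3.24%. Rab33b, a Golgi Rab that binds the autophagy protein Atg16l1, showed the largest of these differences. It read 8.73, 8.35 and 8.37 in thymus CCR7- arrays, against 10.26, 10.37 and 10.08 in spleen CCR7- arrays, a change of -1.75 (standard error 0.17, adjusted p = 1e-05). After polyI:C its spleen CCR7+ arrays read 9.62, 9.33 and 9.21. Rab38 changed by -1.04 and Rab37 by -0.67 (-2.10 on its second probe set). Same-numbered arrays pair across the tissues in this comparison (r from 0.524 to 0.574). With the replicate number as a block in a fit of these groups alone, 3 Rab genes were higher and 9 lower, where 13.8% and 10.1% of all genes were called. The block over all 15 arrays gave 1 and 4. The added calls of the fit of these groups alone were Rab29 and Rab3d, higher by 0.38 and 0.51, and Rab10, Rab19, Rab20, Rab40c, Rab43 and Rab5a, with changes from -1.32 (Rab20) to -0.35 (Rab5a). The 3 lower calls became 5 without untreated spleen CCR7+ replicate 1 or 2, arrays that enter this comparison only through the shared spread.

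Between CCR7+ cells of thymus and untreated spleen 11 Rab genes were called, 20.8% where 12.2% of all genes were, with 7 higher in thymus (13.2% against 8.71% of all genes) and 4 lower (7.55% against 3.47%). Rab13, whose arrays are given above, differed most, by 1.43 and without overlap (standard error 0.16, adjusted p = 5e-05). Rab42 (1.42), Rab26 (1.21), Rab29 (1.16), Rab39b (1.11), Rab31 (0.996) and Rab23 (0.90) were higher as well. Lower in thymus were Rab20 (-1.32, with overlapping arrays), Rab43 (-0.95), Rab33b (-0.91) and Rab38 (-0.60). Rab33b was thus lower in thymus than in spleen in both fractions. It read 8.85, 8.52 and 8.58 in thymus CCR7+ arrays, against 9.31, 9.57 and 9.78 in untreated spleen CCR7+ arrays. The 4 lower calls became 2 without any 1 of the thymus CCR7+ replicates 1, 2 and 3, and in a fit of these groups alone. Arrays pair by number here too (r from 0.420 to 0.590). With the block in a fit of these groups alone, Rab38 was not called (-0.60, adjusted p = 0.083).

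The change with maturation differed between tissues for 2 Rab genes, Rab26 and Rab42, or 3.77% of those tested where 3.18% of all genes were called. Both differences were positive, a direction in which 1.79% of all genes were called. That of Rab42 compares rises from CCR7- signal below the filter value in both tissues. The thymic rise of Rab26 exceeded the splenic one by 1.42 (standard error 0.26, adjusted p = 0.0075) and that of Rab42 by 1.20 (standard error 0.24, adjusted p = 0.011). No Rab gene was called with a negative difference (thymic minus splenic change) by limma, where 1.39% of all genes were. At an unadjusted limma p under 0.05, 11 Rab genes had a positive difference, Rab26 and Rab42 among them, and 2 a negative one. The share of all genes at that looser threshold was not computed. The 2 negative ones were Rab25, with -0.40 in thymus and 0.08 in spleen, and Rab44, with -0.22 and 0.26. The 2 calls at the adjusted p became 4 without untreated spleen CCR7+ replicate 1 or 2.

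In all, 19 of the 53 Rab genes were called in none of the 7 comparisons, on the brightest probe set, among them Rab1a, Rab5a and Rab18. The share of all genes tested that were called in none is not given here, so the count has no background. For 10 of the 19 another probe set was above the filter, and for 6 of these (Rab2a, Rab3d, Rab10, Rab11a, Rab11b and Rab14) such a probe set was called in at least 1 comparison. For Rab10 it was higher in thymus (0.70) and after polyI:C (0.92). On the brightest probe sets the log2 fold changes of the 19 between groups ran from -0.63 (Rab10, untreated spleen) to 0.63 (Rab28, thymus). The 95% intervals reached between 0.25 (Rab1a) and 0.75 (Rab5c) to either side, so changes of that size or smaller could not be resolved. These intervals are not adjusted for the number of genes tested, so somewhat larger changes could also go uncalled.

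The regulators of Rab proteins were listed as 140 genes, of which 131 were measured and 117 tested. Of these 32 were higher and 18 lower in thymus CCR7+ cells, 42.7%, and 25 were higher and 25 lower in untreated spleen CCR7+ cells, also 42.7%. After polyI:C 30 were higher and 33 lower than in spleen CCR7- cells, 53.8%. These shares stand beside 37.3%, 36.5% and 46.4% of all genes. Among GAPs 18 of 36 were called in thymus (13 higher), and among GEFs 14 of 33 (9 higher). Of 38 effectors tested, 7 were higher and 4 lower in thymus, 28.9% in either direction against 37.3% of all genes. Of 8 genes for GDP dissociation, escort and prenylation, 2 were higher and 3 lower in thymus, 0 and 4 in untreated spleen, and 0 and 3 after polyI:C. In those comparisons 16.8%, 12.3% and 18.4% of all genes were called higher by limma, and 20.4%, 24.1% and 28% lower.

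Single regulators moved as far as the Rab genes. Rilpl1, an effector that binds Rab8a and Rab10 once Lrrk2 has phosphorylated them, read 8.24, 8.54 and 7.98 in thymus CCR7+ arrays, against 4.74, 4.44 and 4.64 in thymus CCR7- arrays. Its spleen arrays read 8.44, 9.92 and 9.55 after polyI:C and 5.24, 6.08 and 5.24 in untreated CCR7+ cells, against 4.16, 4.60 and 4.42 in CCR7- cells. Its order over the CCR7+ groups was that of Rab26 by mean, and it rose by 3.65 in thymus and 4.91 after polyI:C, with a difference between tissues of 2.52 (adjusted p = 0.0064). Rilpl1 was 3.78 higher in polyI:C than in untreated CCR7+ cells. Its CCR7- arrays lie near the filter value.

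Lrrk2, the kinase that phosphorylates several Rab proteins, changed by -2.17 in thymus, -2.65 in untreated spleen and -2.80 after polyI:C. It read 6.82, 7.43 and 6.91 in thymus CCR7+ arrays, against 9.54, 8.79 and 9.35 in thymus CCR7- arrays. The spleen values were 6.51, 7.59 and 6.05 after polyI:C and 5.87, 7.68 and 7.04 in untreated CCR7+ cells, against 9.64, 9.18 and 9.72 in CCR7- cells. No CCR7+ array reached any CCR7- array. Ric1, a subunit of the GEF of Rab6, rose by 2.19, 2.30 and 3.07, and Rabgap1l, a GAP, by 2.25, 1.70 and 2.14. Rabgef1, the GEF of the Rab5 group, rose by 1.84, 1.68 and 2.65. Tbc1d31, named for its GAP-type domain, changed by -2.71, -2.08 and -2.23, and Mical1, which binds several Rab proteins and oxidises actin, by -2.47, -1.66 and -3.31. Mical3 rose by 2.36 in thymus and 3.38 in untreated spleen, Tbc1d1 by 2.89 in untreated spleen and 3.05 after polyI:C, and Dennd2c changed by -2.31 in thymus and -1.99 in untreated spleen.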

How the data were processed

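The authors deposited log2 values per probe set of Affymetrix arrays, made with RMA and the affy package per the submitters' processing notes; neither versions nor which arrays were normalised together is given in the sources used here. RMA gives no detection calls. Of 45101 probe sets, 34958 carried 1 gene symbol in the platform annotation. Each gene was its probe set with the highest mean, and a gene was tested where 3 or more arrays exceeded the overall 40th percentile (4.39). Group means of all 15 arrays were fitted with limma 3.58.1 (R 4.3.3, eBayes, 10 residual and 4.01 prior degrees of freedom), with 7 contrasts and Benjamini-Hochberg adjustment over 13629 genes. The number of arrays limits the precision, and an exact test of 3 against 3 cannot go below p = 0.1.

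The members, the role, regulator and marker lists and the comparisons were chosen with earlier results of these data known. Values of every array are given for the 23 members with an adjusted p under 0.05, an absolute log2 fold change of at least 1 and no overlap between the groups in some comparison (the difference between tissues needs no such separation). Regulators named by value come from those called at least 2-fold, without overlap and among the 4 largest rises or falls of a comparison. The fit was tested on simulated data with independent arrays. Such data lack the pairing of arrays described next, so the test does not cover it. Replicate numbers in the titles pair arrays between thymus and spleen, where same-numbered arrays correlate at r from 0.420 to 0.590 after group means are removed, but not between CCR7+ and CCR7- cells of a tissue. The promoter motifs were chosen after the calls were seen. Alternatives were other filters, probe set choices, normalisations, fits and single arrays left out.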

Additional observations from a re-analysis of the deposited data

Results flagged for a closer look

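The maturation change differed between thymus and spleen by an interaction test for Rab26 (thymic minus splenic change 1.42, adjusted p = 0.0075) and for Rab42 (1.20, adjusted p = 0.011). Both rose in all 3 CCR7+ arrays of each tissue. For Rab42 the CCR7- arrays of both tissues are below the filter value of 4.39. Groups of 3 arrays are too small for a test of single outlying arrays.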

How the results depend on the processing

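Of 60 calls of a named Rab gene in a comparison, 57 kept their direction and stayed under the adjusted p of 0.05 in all alternatives that could be run. The other 3, Rab20 and Rab22a for polyI:C against untreated CCR7+ cells and Rab27a for polyI:C against CCR7- cells, are given with the results, and no value reversed. Counts of Rab genes in the 3 maturation comparisons stayed within 1.5 times of the reported ones. Without single arrays they ran from 17 to 18 higher and 5 to 6 lower in thymus, 12 to 14 and 7 to 12 in untreated spleen, and 13 to 20 and 8 to 11 after polyI:C. Shares of all genes called without single arrays are not given here. Changes of these counts can therefore not be read as particular to Rab genes. The smaller counts moved more, and the cause was not tested. Without single arrays they ran from 6 to 9 higher (10 with all arrays) and 2 to 5 lower for polyI:C against untreated cells, 1 higher and 3 to 5 lower between CCR7- cells, 6 to 9 higher and 2 to 4 lower between CCR7+ cells of the tissues, and 2 to 4 higher for the difference between tissues. When probe sets of a gene were averaged, 6 were higher after polyI:C against untreated cells, 7 lower between CCR7- cells and 4 higher for the difference between tissues. Without probe sets that may bind several transcripts 2 were higher between CCR7- cells, and with repeated quantile normalisation 5 were lower there. In fits of the compared groups alone 4 were higher and 1 lower for polyI:C against untreated cells, 5 lower between CCR7- cells and 2 lower between CCR7+ cells of the tissues. With the replicate block, 18 were higher and 6 lower in thymus, 14 and 11 in untreated spleen and 18 and 10 after polyI:C. The block limited to the compared groups, chosen after seeing the data, gave 3 higher and 9 lower between CCR7- cells and 7 and 3 between CCR7+ cells. Signal near the filter value limits Rab42, Rab20 and Rab34, whose changes may be understated. The thymus CCR7- arrays of Rab26, Rab39b, Rab5b and Rab6b reached down to 4.98, 4.97, 4.94 and 4.74, so the same may hold for them.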
